A study of Drosophila melanogaster with 2 samples.

Results

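The 667 strong summits of replicate 6 with no strong replicate 4 summit within 100 bp were described. They come from anti-GFP ChIP-seq, in which chromatin bound by a tagged protein is pulled down and sequenced, of Su(var)2-HP2-GFP in whole Drosophila melanogaster embryos aged 0 to 10 h. The summits were chosen by the signal value of the peak: in each replicate's list the rows of highest signal, as many as the authors' IDR list of reproducible peaks has, were taken as strong. A member is a strong replicate 6 summit with no strong replicate 4 summit within 100 bp. By this rule 33.3% of the strong replicate 6 summits, 667 rows of a list of 30000, were members. The 1339 other strong summits had a strong replicate 4 summit within 100 bp and are called shared.

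The study has 1 group with 2 biological replicates, numbered 4 and 6 in the labels. Both come from a transgenic line that stably carries a fusion of Su(var)2-HP2 to a C-terminal GFP, and both peak lists were called against a common control alignment. Every cell type of the embryo is mixed in such a sample, and what drives the transgene is not stated in the labels. There is no second condition, so all comparisons below set the members beside other summits of the same experiment, without a test.

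Su(var)2-HP2 is a Drosophila heterochromatin protein that binds the chromodomain protein HP1. Mutations of such suppressors of variegation relieve the silencing of genes placed next to heterochromatin. Heterochromatin in this fly covers the parts beside the centromeres, most of the Y and the small chromosome 4, and it is rich in transposable elements.

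The sequences below show what a member looks like at base level, and all are given on the plus strand of the RefSeq assembly of the dm6 chromosomes. The first group holds the strongest members at start sites and the strongest away from them, printed from 25 bases outside one replicate's summit to 25 bases outside the other's. The capitals mark the 11 bases centred on each summit. In the RpS3A and Set1 lines the replicate 4 summit comes first, and in the other lines of this group the replicate 6 summit does. In all of these lines but that of Set1, the replicate 4 summit shown also has a shared replicate 6 summit within 100 bp of it.
RpS3A pair, chr4:67333-67613: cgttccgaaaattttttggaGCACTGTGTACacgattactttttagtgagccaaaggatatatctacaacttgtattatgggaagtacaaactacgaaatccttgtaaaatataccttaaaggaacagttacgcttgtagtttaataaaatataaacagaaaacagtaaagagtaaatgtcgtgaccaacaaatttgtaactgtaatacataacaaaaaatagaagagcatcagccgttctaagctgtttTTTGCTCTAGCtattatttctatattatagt
SmD1 and Ptp69D pair, chr3L:12734680-12734852: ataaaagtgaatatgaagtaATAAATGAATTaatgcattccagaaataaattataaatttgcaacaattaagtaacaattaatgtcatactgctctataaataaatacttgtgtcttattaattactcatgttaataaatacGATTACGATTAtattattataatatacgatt
Pair nearest to RpL15, chr3L:27264631-27264823: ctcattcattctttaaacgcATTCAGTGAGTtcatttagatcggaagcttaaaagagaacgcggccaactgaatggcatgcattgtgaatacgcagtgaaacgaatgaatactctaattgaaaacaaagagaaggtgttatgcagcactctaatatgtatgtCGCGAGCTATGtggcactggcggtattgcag
Set1 pair, chr3L:25107917-25108122: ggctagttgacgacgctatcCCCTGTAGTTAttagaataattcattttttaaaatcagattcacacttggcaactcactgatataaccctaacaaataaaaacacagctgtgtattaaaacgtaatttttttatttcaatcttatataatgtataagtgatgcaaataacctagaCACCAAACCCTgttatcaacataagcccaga
The next group holds the strongest members whose summit base is soft-masked, that is, written in lower case as repeat sequence in the assembly. It is printed 100 bases to each side of the summit, with the soft-masked bases in capitals.
CG32017 intron, chr4:1144708-1144908: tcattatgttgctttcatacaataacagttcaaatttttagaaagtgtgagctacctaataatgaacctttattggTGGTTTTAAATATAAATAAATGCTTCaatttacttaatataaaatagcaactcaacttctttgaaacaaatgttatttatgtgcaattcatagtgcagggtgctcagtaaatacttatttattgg
lncRNA:CR44867 start, chr2L:15912011-15912211: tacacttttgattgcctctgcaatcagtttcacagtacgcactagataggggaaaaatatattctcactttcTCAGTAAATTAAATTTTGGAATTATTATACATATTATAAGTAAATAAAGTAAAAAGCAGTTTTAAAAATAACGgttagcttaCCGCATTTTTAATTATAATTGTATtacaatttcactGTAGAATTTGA
The last group holds members among those with the longest perfect tandem runs, which are in capitals.
kibra, chr3R:14714628-14714828: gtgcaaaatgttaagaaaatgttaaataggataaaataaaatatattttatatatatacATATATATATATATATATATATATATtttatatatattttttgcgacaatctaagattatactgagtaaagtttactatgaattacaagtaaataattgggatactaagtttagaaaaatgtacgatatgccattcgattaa
Mhcl, chr3R:16072374-16072574: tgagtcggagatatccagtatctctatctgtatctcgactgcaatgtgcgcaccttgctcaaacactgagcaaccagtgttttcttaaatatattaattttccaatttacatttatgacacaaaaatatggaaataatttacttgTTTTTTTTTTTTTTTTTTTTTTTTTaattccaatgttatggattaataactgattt

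The values on both sides of the rule's borders were close. The weakest strong summit of replicate 6 had a signal value of 54.2 and the next row 54.1. In replicate 4 these values were 78.5 and 78.4. To set the replicates side by side, each signal was set relative to the median over the strong rows of its list, which was 90.1 in replicate 6 and 127 in replicate 4 (relative signal). On this scale the border lay at 0.601 in replicate 6 and at 0.620 in replicate 4. In distance, 29 strong replicate 6 summits lay 91 to 100 bp from a strong replicate 4 summit and 22 lay 101 to 110 bp away. Taking 0.5 times as many rows of each list as strong left 243 members, and taking 2 times as many gave 1836. The members' median signal was 65.8, from 54.2 to 842, and their median rank in the replicate 6 list was 1508, against 714 for the shared summits. These values chose the members and are a description only. All 667 members carried the highest −log10 q-value of their list, 3.97, as did 4624 rows in all.

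Most members were not missing from the replicate 4 list. A replicate 4 row of some rank lay within 100 bp of 432 of the 667 members (64.8%, Wilson 95% interval 61.1 to 68.3), and the called interval of 604 members (90.6%, 88.1 to 92.5) overlapped a replicate 4 interval. With 50 bp as the distance of the rule and of the look-up, the first share was 29.2%. Only 63 members (9.45%, 7.45 to 11.9) overlapped none. The members therefore fall into 4 classes. In 138 (20.7%) the interval overlapped that of a strong replicate 4 peak whose summit lay over 100 bp away. In 377 (56.5%) a lower-ranked replicate 4 summit lay within 100 bp. In 89 (13.3%) the interval overlapped a lower-ranked replicate 4 interval with its summit farther off. The other 63 are those with no overlapping row. Because all of these shares follow from positions and ranks in the replicate 4 list, which the rule used in part, they describe the members and test nothing. For the 667 strong replicate 4 summits with no strong replicate 6 summit within 100 bp (33.3%), the same look-up found a replicate 6 row within 100 bp for 444 (66.6%) and no overlapping interval for 52 (7.80%).

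**Figure D1:**
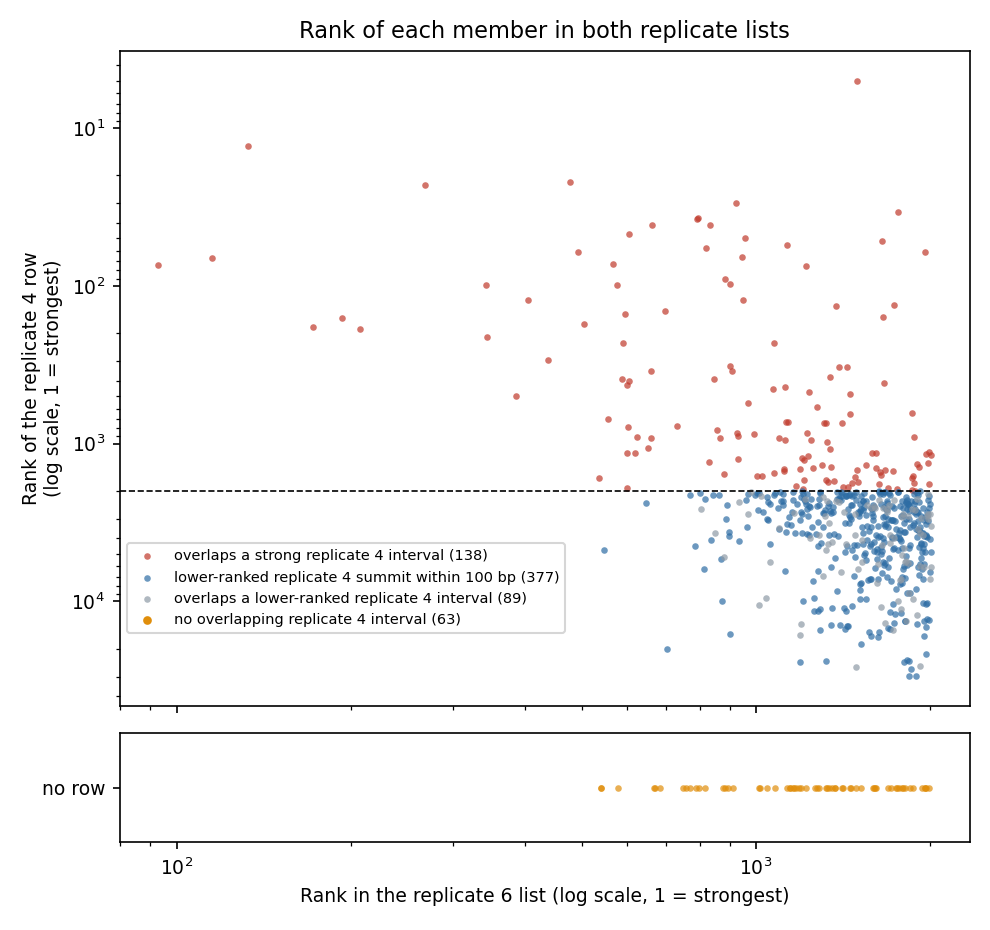
Rank of each of the 667 members in the replicate 6 list (horizontal, log scale) and of its replicate 4 row (vertical, log scale, strongest at the top); the row is the strongest within 100 bp for the 377 members with a lower-ranked summit, and otherwise the strongest overlapping row. The dashed line is the border of the strong rows in replicate 4, the 138 red points above it overlap a strong replicate 4 interval, and the lower strip holds the 63 members with no overlapping row.

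The strongest members all lay in intervals that overlapped a strong replicate 4 interval, and most of these sites were shared. Of the 14 members among the 500 strongest replicate 6 rows, all 14 had such an overlap. In 11 of them the same replicate 6 interval also held a shared summit, so the member was a further summit of a shared peak. The strongest, rank 93 with a signal of 842 and a relative signal of 9.34, lay 170 bp upstream of Gprk1, which encodes a G protein-coupled receptor kinase (interval chr2R:4470542-4472189). The overlapping replicate 4 peak had rank 74 and a relative signal of 9.46, and its summit was 187 bp away. That summit was matched by a shared replicate 6 summit of the same interval, 200 bp from the member, with a relative signal of 8.05. The member at CG10395, in its 5' UTR, had rank 115 and a relative signal of 7.99, and the replicate 4 summit 180 bp away had rank 67 and a relative signal of 10.4. There too the replicate 6 interval held a shared summit, with a relative signal of 15.1. Both genes thus had a strong matched summit in each replicate beside the member.

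RpS3A, a protein of the small ribosomal subunit encoded on chromosome 4, gave the next member. Its summit, 381 bp upstream, had rank 133 and a relative signal of 7.03, while the replicate 4 summit 230 bp away had rank 13 and a relative signal of 15.6. The shared summit of the same interval had 17.9 in replicate 6. The member between SmD1, a core protein of spliceosomal snRNPs, and Ptp69D, a receptor tyrosine phosphatase of axon guidance, had rank 172 and a relative signal of 5.07. Its replicate 4 partner, 122 bp away, had rank 183 and a relative signal of 4.43, and the shared summit there, weaker than the member, had 3.01 in replicate 6. At both pairs the member's summit base lay between annotated genes. The G + C content of the printed sequences was 31.0% at RpS3A and 19.7% at SmD1 and Ptp69D. Other strong members of this kind lay at pie and Wdfy2 (rank 193, relative signal 4.61, against 4.51 at the replicate 4 summit 106 bp away and 4.97 at another 217 bp away) and at step and CG1416 (rank 207, 4.21 against 4.31). The interval at step also held a shared summit, and that at pie did not. Here step encodes a guanine nucleotide exchange factor for Arf GTPases. At ClpP, the gene of a mitochondrial protease subunit, the member was a minor summit with a relative signal of 1.84. The shared summit of its interval, 216 bp from it, had 14.1 in replicate 6 and 14.5 in replicate 4.

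Over all 138 members overlapping a strong replicate 4 interval, the nearest strong replicate 4 summit was at a median distance of 144.5 bp, from 102 to 1264 bp. The relative signal was higher at the member than at that summit in 58 and lower in 80. In 47 of them the replicate 6 interval also held a shared summit, which was stronger than the member in 40, and in 36 the nearest strong replicate 4 summit was within 100 bp of a shared one. The other 91 had a median distance of 135 bp, a median relative signal of 0.827 and a median partner relative signal of 0.861. In these 91 pairs the 201 bases around the replicate 6 summit had a median G + C content of 32.8%, and those around the replicate 4 summit 34.8%. The replicate 6 window was the lower in 56 pairs, the higher in 33 and equal in the rest. In the 47 pairs with a shared summit the order of the medians was the opposite, 35.8% at replicate 6 and 33.3% at replicate 4, with the replicate 6 window lower in 23 and higher in 22. Among the 51 pairs at start sites without a shared summit, the replicate 6 window was lower in 35 and higher in 14.

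The 377 members with a lower-ranked replicate 4 summit were the largest class. Their replicate 4 rank had a median of 3367 and ran from 2007 to 29746. Counting every member with a replicate 4 row within 100 bp, 110 of the 432 rows had ranks 2007 to 2500, 141 had 2501 to 4000, 66 had 4001 to 6000, 51 had 6001 to 10000 and 64 lay beyond. Their relative signal had a median of 0.702 in replicate 6 and 0.455 in replicate 4, and the median log2 ratio of replicate 6 to replicate 4 was 0.70, against 0.09 for the shared summits. A ratio above 0 is what the rule selects, and no test was made of it. The strongest of this class lay in an intron of l(2)41Ab in pericentromeric 2R, with rank 547, a signal of 145 and a relative signal of 1.61, against rank 4758, a signal of 47.7 and a relative signal of 0.377 in replicate 4. A member 110 bp upstream of CG40006, in pericentromeric 2L, had a relative signal of 1.31 against 0.158, and one 196 bp upstream of Mondo, a gene for a sugar-responsive transcription factor, 1.20 against 0.609.

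The 63 members with no overlapping replicate 4 row had a median signal of 73.4, from 54.4 to 148, and their highest rank was 539. This median was below the 81.8 of members overlapping a strong replicate 4 interval. It was above the 63.3 of members with a lower-ranked summit and the 61.9 of those overlapping a lower-ranked interval. The replicate 4 list stops at 30000 rows, the last with a relative signal of 0.110, so these 63 sites have no replicate 4 value. The strongest, with a signal of 148 and a relative signal of 1.64, lay 85 bp upstream of CG9662 beside Ptpa, which encodes an activator of protein phosphatase 2A. The next, also with a signal of 148 and rank 541, lay at lncRNA:CR44867 and lncRNA:CR44868 in an intron of beat-Ib, and a member with a signal of 123 lay within 1 kb of it at lncRNA:CR44867. ASPP, a p53-binding protein gene, had a member with a signal of 138 at 153 bp upstream. A member with a signal of 123 lay in Dhc64C, the gene of the cytoplasmic dynein heavy chain, 848 bp from its nearest start site. The member at aos, which encodes a secreted inhibitor of the EGF receptor, had a signal of 121, and a strong replicate 4 summit lay 176 bp from it in an interval that did not overlap. Of the 63, 36 (57.1%, 44.9 to 68.6) lay at start sites, a higher share than the 34.0% (29.4 to 38.9) of the class with a lower-ranked summit. The share was 51.4% (43.2 to 59.6) for members overlapping a strong interval and 41.6% (31.9 to 52.0) for those overlapping a lower-ranked interval.

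Of the authors' lists from both replicates, the pooled list held most members and the IDR list a minority. The pooled list, called on the reads of both replicates, had a summit within 100 bp of 572 members (85.8%), at a median pooled rank of 1976. The IDR list, which keeps peaks that rank reproducibly, had one for 294 members (44.1%, 40.4 to 47.9), against 98.6% of the shared summits and 54.4% of the replicate 4 only summits. The members' share was 86.4% with 0.5 times as many rows taken as strong and 6.81% with 2 times as many. By class, the IDR list held 78 of the 138 members overlapping a strong interval, 189 of the 377 with a lower-ranked summit, 21 of 89 and 6 of 63. These lists were built from the same replicates, so the order of these shares is not independent of the rule.

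By place, 432 members (64.8%, 61.1 to 68.3) lay on the chromosome arms, 207 (31.0%, 27.6 to 34.6) in the pericentromeric parts, 26 (3.90%, 2.67 to 5.65) on chromosome 4 and 2 on the Y. The pericentromeric share was 21.1% (19.0 to 23.4) for the shared summits, 20.8% (17.9 to 24.1) for the replicate 4 only summits and 35.6% for the other 27994 rows of the replicate 6 list. The intervals of members and of both strong sets did not overlap, and they cover counting error only. With the borders 0.5 Mb nearer the centromere the members' share was 21.7%. The other sets were not recomputed with those borders. The members were weaker than the shared summits, so the shares were also read within bands of replicate 6 rank. At ranks 1001 to 1500 the pericentromeric share was 31.6% of 228 members and 11.03% of 272 shared summits, and from rank 1501 to the border it was 26.5% of 336 and 15.3% of 170. Of the members overlapping a strong replicate 4 interval, 65 of 138 (47.1%) were pericentromeric, and without that class the share was 26.8%.

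Read from the other side, 207 of the 490 strong replicate 6 summits in the pericentromeric parts (42.2%, 37.9 to 46.7) were members, against 432 of 1386 on the arms (31.2%, 28.8 to 33.7). The highest share among parts with over 100 strong summits was 47.1% (39.4 to 54.9) in pericentromeric 3L, where 31.1% (23.5 to 39.9) of the strong replicate 4 summits had no strong replicate 6 partner. On chromosome 4 the order was the opposite, with 20.5% (14.4 to 28.3) of 127 strong replicate 6 summits and 31.8% (24.8 to 39.6) of 148 strong replicate 4 summits. In pericentromeric 3L and on chromosome 4 alike, the intervals of the replicates overlapped. Among the shared summits, the median log2 ratio of relative signal, replicate 6 to replicate 4, was 0.25 in the pericentromeric parts, 0.12 on the X arm, 0.07 on chromosome 4 and 0.04 on the autosomal arms. Whether that shift set the share of members was not tested.

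**Figure D2:**
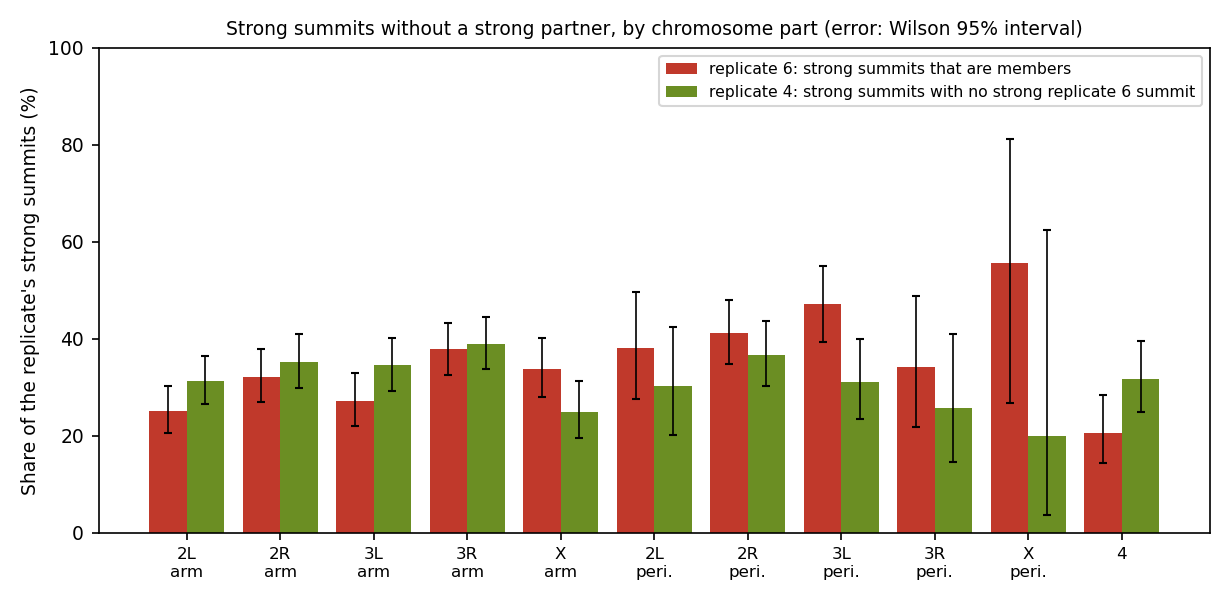
Share of the strong summits of each replicate that have no strong summit of the other replicate within 100 bp, by chromosome arm, pericentromeric part (peri.) and chromosome 4; error bars are Wilson 95% intervals. In pericentromeric 3L the replicate 6 share (47.1%) is above the replicate 4 share (31.1%), and on chromosome 4 it is below (20.5% and 31.8%). The intervals of the replicates overlap in both parts.

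The X arm held 78 of the 432 arm members (18.1%, 14.7 to 21.96), 16.04% (13.8 to 18.5) of the shared arm summits and 10.6% (8.16 to 13.7) of the replicate 4 only arm summits. The X members were mostly of 1 class: 67 of the 78 had a lower-ranked replicate 4 summit, which is 24.8% (20.04 to 30.3) of the 270 arm members of that class. Only 1 of the 48 arm members with no overlapping replicate 4 row was on X, a start-site member of dnc, the cAMP phosphodiesterase gene. On the X arm 3 members lay in Raf, the kinase gene of the MAP kinase cascade, the most of any arm gene among members away from start sites. The sex of the embryos was not collected, per the labels.

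At start sites, 272 of the 667 members (40.8%, 37.1 to 44.6) had their summit within 500 bp of an annotated start site. Over all 30000 rows of the replicate 6 list this share was 20.5%, for the shared summits 59.6% (56.9 to 62.2) and for the replicate 4 only summits 41.5% (37.8 to 45.3). The gap to the shared summits lay mainly outside the arms. On the arms 56.7% (52.0 to 61.3) of members and 62.4% (59.3 to 65.4) of shared summits were at start sites. There, the shares were 58.1% and 50.6% at ranks 1001 to 1500, and 53.5% and 54.0% from rank 1501 to the border. Over all ranks, the shares in the pericentromeric parts were 9.66% (6.34 to 14.5) and 44.5% (38.8 to 50.3), and on chromosome 4 26.9% (13.7 to 46.1) and 76.2% (67.1 to 83.5). Chromosome 4 was not split by rank. Rank bears on the pericentromeric values: at ranks 1001 to 1500 they were 6.94% of 72 members and 6.67% of 30 shared summits, and at ranks 501 to 1000 17.5% of 40 and 23.2% of 56. From rank 1501 to the border they were 6.74% of 89 and 3.85% of 26. Of the shared pericentromeric summits, 171 of 283 had ranks 1 to 500, where only 6 members lay.

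**Figure D3:**
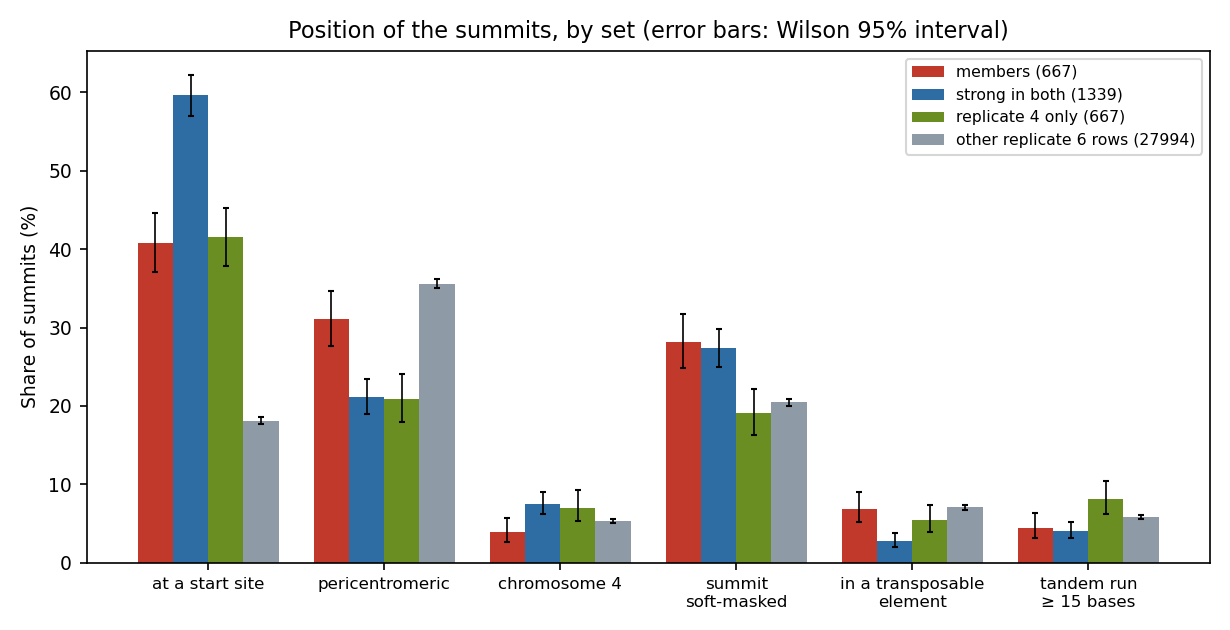
Share of the summits in 4 sets (members, strong in both replicates, replicate 4 only, other replicate 6 rows) at start sites, in pericentromeric parts, on chromosome 4, with a soft-masked summit base, in an annotated transposable element and with a tandem run; error bars are Wilson 95% intervals. Members stand at 40.8% for start sites, level with the 41.5% of replicate 4 only, and at 31.0% for pericentromeric parts, above both other strong sets.

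Members at start sites lay upstream. Of the 272, 226 (83.1%, 78.2 to 87.1) had their summit upstream of the nearest start site, close to the 86.7% (84.2 to 88.9) of shared summits and above the 72.2% (66.7 to 77.1) of replicate 4 only summits and the 59.8% of other replicate 6 rows. Their median position was -153 bp, where negative is upstream, with the central 50% of values from -237 to -63 bp. The medians were -123.5 bp for the shared and -60 bp for the replicate 4 only summits. Start sites on both strands lay within 500 bp of 110 of the 272 members (40.4%, 34.8 to 46.4), and of 38.3% (35.0 to 41.8) of the shared summits at start sites.

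**Figure D4:**
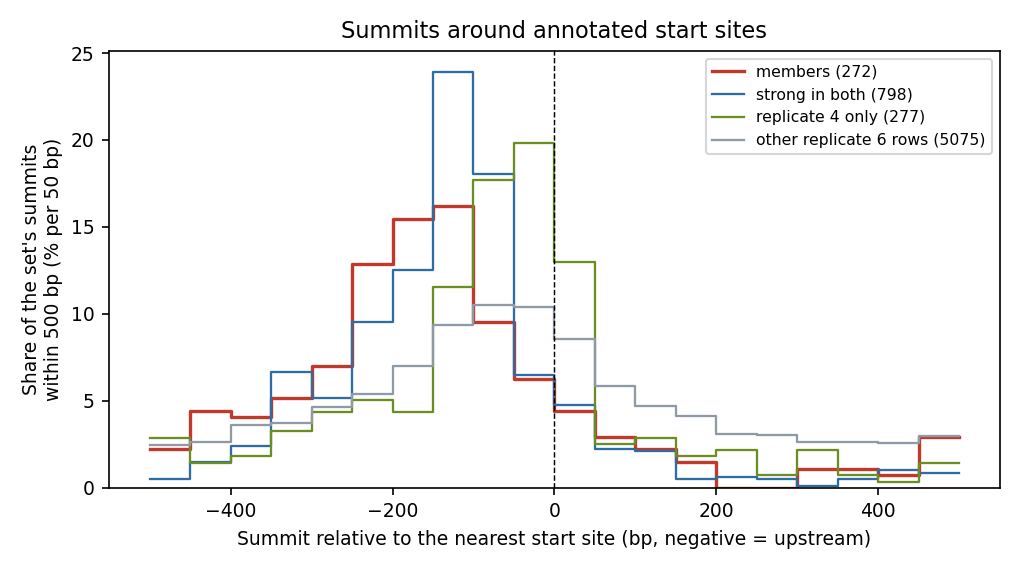
Position of summits relative to the nearest annotated start site in bins of 50 bp (negative is upstream), as a percentage of each set's summits within 500 bp. The 272 members lie mostly upstream, around their median of -153 bp, farther out than the 277 replicate 4 only summits with a median of -60 bp.

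The members' start sites belonged to 389 genes, of which 353 were protein-coding, 33 were ncRNA genes and 2 were snoRNA genes. Thus 2.53% of the 13968 protein-coding genes had a member, 6.56% had a shared summit and 2.43% a replicate 4 only summit. A shared summit lay at 52 of the 389 genes as well, and a replicate 4 only summit at 61, while 288 (74.0%) had neither. Most annotated genes had neither: of 18277, 1001 had a shared and 390 a replicate 4 only summit. Of the 353 protein-coding genes, 13.6% also had a shared and 15.9% a replicate 4 only summit. Both shares were above the 6.56% and 2.43% of all protein-coding genes. They are not independent of the rule. At start sites, 71 members overlapped a strong replicate 4 interval, and the replicate 6 interval of 20 of these also held a shared summit. Such members can bring a second strong summit to the same gene. The shares were not recomputed without them.

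Of 17 gene lists, 9 had no gene with a member. The other 8 had 1 to 3 such genes, which is 3.26% to 9.68% of their genes. All protein-coding genes had 2.53%. Because this range leaves out the 9 lists without a member, it shows no excess in the lists. Of 92 cytoplasmic ribosomal protein genes 3 had a member: RpS3A, RpS12 and RpL32. All 3 members overlapped a strong replicate 4 interval, and all 3 genes also had a shared summit. In contrast 21 of the 92 had a shared summit and 26 a replicate 4 only summit. The RpS12 member had a relative signal of 1.48 against 0.641 for the strongest overlapping replicate 4 row, and the RpL32 member 0.660 against 0.636. Among 73 mitochondrial ribosomal protein genes the members were mRpL34, mRpS25 and mRpL37, and mRpL37 had no overlapping replicate 4 row.

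Among signalling genes, aos was joined by spi, the EGF receptor ligand Spitz (relative signal 1.01, against 1.09 for the strong replicate 4 row it overlapped), 2 of 35 genes in all. Of 31 cytoskeleton and adhesion genes 3 had members: shg, which encodes E-cadherin, sqh, the myosin regulatory light chain, and Moe, the ERM protein Moesin. The sqh member had a relative signal of 0.693 against 0.458, and that at Moe 0.652 against 0.408. The dorsoventral gene htl, an FGF receptor of the mesoderm, had 0.689 against 0.602, with replicate 4 rank 2094. The heat shock list gave Hsc70-5, a mitochondrial chaperone, with 0.730 against 0.509.

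Among 29 heterochromatin protein genes 1 had a member: piwi, whose product uses piRNAs to silence transposons in the germ line. Its member had rank 1195 and a relative signal of 0.861, and the strongest overlapping replicate 4 row had rank 13946 and 0.202. Of 20 insulator protein genes only mod(mdg4) had a member (relative signal 0.612), while 7 had a shared summit. Notch and proneural genes (0 of 34) and Polycomb and Trithorax group genes (0 of 31) had no member, and each list had 6 genes with a shared summit. The lists of 115 histone genes, 8 Hox genes, 38 segmentation genes, 21 early zygotic genes, 29 mitotic genes, 119 odorant and gustatory receptor genes and 120 cuticle protein genes had no member at a start site either. These counts are small and were not tested.

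Away from start sites lay 395 members. Of these 206 were in introns, 157 between genes, 15 in coding sequence, 9 in other exons, 7 in 3' UTRs and 1 in a 5' UTR. On the arms introns prevailed (123 of 187), and in the pericentromeric parts the space between genes did (101 of 187). The strongest lay 2599 bp from the nearest start site, that of the ribosomal protein gene RpL15 in pericentromeric 3L, with rank 268 and a relative signal of 3.16. The replicate 4 summit of its printed pair, 142 bp away, had rank 588 and a relative signal of 1.46, below the member, while the strongest overlapping replicate 4 row, with its summit 2510 bp away, had rank 23 and 14.3. The next was in an intron of Set1, which encodes a histone H3 lysine 4 methyltransferase, with rank 342 and a relative signal of 2.43. The replicate 4 summit 155 bp away had rank 1034 and 0.976, and the strongest overlapping row, 802 bp away, had 7.94. Both replicate 6 intervals also held a shared summit, with a relative signal of 1.79 near RpL15 and 12.3 at Set1. A member with rank 386 lay in an intron of CG32017 on chromosome 4, at a relative signal of 2.19 against 1.62.

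Several pericentromeric genes held more than one member away from start sites. Myo81F and lovit, which the annotation gives lengths of 1965857 and 434041 bp, held 6 each. AGO3, an Argonaute of the piRNA pathway, and Maf1, a repressor of RNA polymerase III, held 4 each. Those with 3 included nAChRalpha4, a nicotinic acetylcholine receptor subunit, p120ctn, a catenin, and Atf6, a transcription factor of the endoplasmic reticulum stress response. On chromosome 4, Cadps held 5 and CG32017 4. These counts were not set against gene length. Neither they nor the window counts below were set against the number of replicate 6 rows there. In fixed windows of 50 kb, 504 windows held a member, 407 of them just 1, and 37 windows with 3 or more held 140 members. The fullest window, chr2R:5100001-5150000 at gus and Atf6, held 9 members, of which 3 overlapped strong replicate 4 intervals and 2 lay in INE-1 copies. The next, chr2R:1500001-1550000 at Maf1, held 7, and chr3L:23200001-23250000 at nAChRalpha4 held 6. Each of these 3 windows held members of at least 3 of the 4 classes.

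Soft-masked sequence was about as frequent at members as at shared summits, and annotated transposable elements were more frequent. The summit base was soft-masked in 188 members (28.2%, 24.9 to 31.7), in 27.3% (25.01 to 29.8) of shared summits, 19.0% (16.2 to 22.2) of replicate 4 only summits and 20.4% of other replicate 6 rows. Over 50% of the 201-base window was soft-masked in 83 members (12.4%, 10.2 to 15.2), against 9.11% (7.68 to 10.8) and 4.35% (3.04 to 6.17) in the other strong sets. An annotated transposable element covered 46 summits (6.90%, 5.21 to 9.08), against 2.76% (2.01 to 3.79) of shared, 5.397% (3.92 to 7.38) of replicate 4 only summits and 7.08% of other rows. Most, 34, were pericentromeric, where they made up 16.4% of 207 members, 8.13% of 283 shared and 17.3% of 139 replicate 4 only summits.

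The families most often covered were INE-1, a short non-autonomous element (9 members), 1360 (8), Cr1a (7) and diver2 (3). INE-1 and 1360 also led among the shared summits, with 11 and 9. How reads matching several copies of an element were treated is not stated in the labels. Perfect tandem runs of 15 bases or more, with units of 1 to 6 bases, were present at 30 members (4.50%, 3.17 to 6.35), at 4.03% (3.10 to 5.22) of shared and 8.10% (6.26 to 10.4) of replicate 4 only summits. At members, runs of 12 bases or more were present in 24.3% and of 20 or more in 1.35%. The longest was a run of 26 bases of AT in kibra, a gene of the Hippo pathway. Runs of 25 bases were of A at Mhcl, a myosin heavy chain-like gene, and of the unit ACAT at another member. Those in kibra and at Mhcl are among the printed sequences.

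The members' sequence was rich in A and T. Median G + C content over the 201 bases at the summit was 33.8%, with the central 50% of values from 28.9% to 38.8%. It was 32.8% for shared summits, 37.3% for replicate 4 only summits and 39.8% for the other replicate 6 rows. The gap between the replicates' own strong summits was larger on the arms, where members had 31.3% and replicate 4 only summits 37.8%. In the pericentromeric parts members had 38.3%, above the 34.3% of shared summits and near the 36.8% of replicate 4 only. On the arms the order held at start sites (30.8% against 36.8%) and away from them (31.8% against 38.8%). Arm members with no overlapping replicate 4 row had 29.9%, and those with a lower-ranked replicate 4 summit 32.1%. On chromosome 4 the medians were 34.8% for 26 members and 34.3% for 47 replicate 4 only summits. The lower G + C content of members against replicate 4 only summits was thus seen on the arms alone. The part of base composition in which summits became members was not tested.

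**Figure D5:**
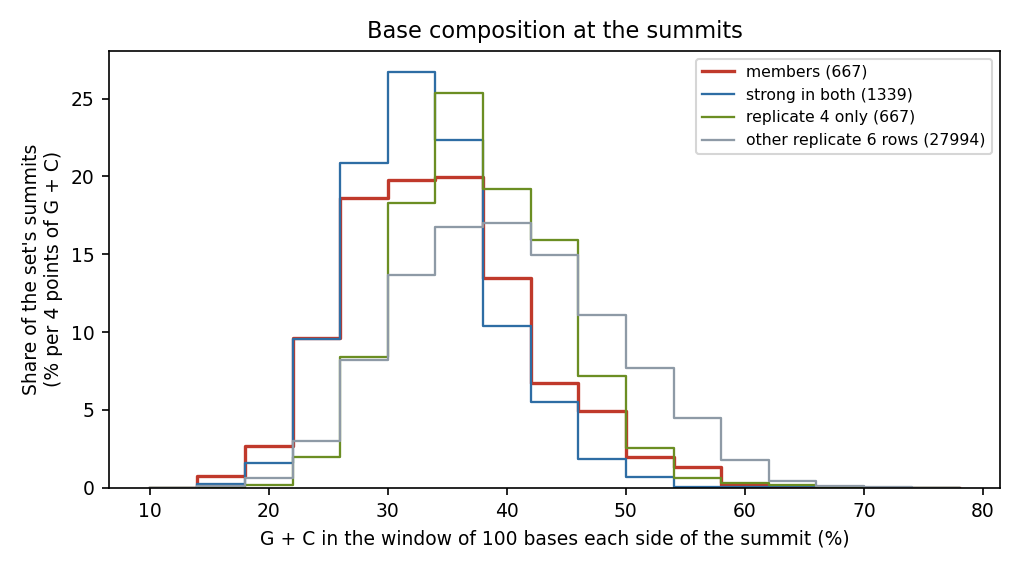
Distribution of G + C content in the 201 bases centred on the summit, as a percentage of each set per 4 points of G + C. The 667 members (median 33.8%) lie near the shared summits (32.8%) and below the 667 replicate 4 only summits (37.3%) and the other replicate 6 rows (39.8%).

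Short motifs made of A and T were more frequent at members than at replicate 4 only summits. The members' windows also had the lower median G + C content, and no motif share was adjusted for base composition. The 6-base TATA box letters TATAAA, searched on both strands of the 201 bases, were found at 38.2% (34.6 to 42.0) of members, 43.4% (40.8 to 46.1) of shared summits and 26.8% (23.6 to 30.3) of replicate 4 only summits. Windows of the same length around all annotated start sites held it in 26.2%. A run of 8 bases, AAAAAAAA or its complement, was found at 15.7% (13.2 to 18.7), 14.9% (13.1 to 16.9) and 9.45% (7.45 to 11.9), and at 10.8% of all start-site windows. At start sites on the arms TATAAA was present at 46.5% (40.4 to 52.8) of members and 46.9% (42.9 to 50.9) of shared summits. The palindrome TATCGATA, which the factors DREF and BEAF-32 bind, was found at 4.49% (2.53 to 7.86) of those members, 6.22% (4.54 to 8.45) of shared and 10.97% (7.60 to 15.6) of replicate 4 only summits, and 5.43% of all start-site windows. The shorter site CGATA, which the palindrome contains, was found at 34.3% (28.6 to 40.4), 34.1% (30.4 to 38.0) and 41.4% (35.3 to 47.7). GAGAG, the core that GAGA factor binds, was found at 18.9% (16.1 to 22.04) of all members and 18.1% (16.1 to 20.2) of shared summits. Over all replicate 6 rows the share was 22.5%. At start sites on the arms it was 14.7% (10.8 to 19.7) of members, 15.6% (12.9 to 18.8) of shared and 20.3% (15.6 to 25.8) of replicate 4 only summits. All start-site windows held it in 24.3%. The core GGTCACAC, bound by M1BP, was found at 5 of the 667 members (0.750%), 23 of the 1339 shared summits (1.72%) and 1.95% of replicate 4 only summits. At start sites on the arms the shares were 0.816% (0.224 to 2.93) of members, 2.86% (1.79 to 4.53) of shared and 5.06% (2.92 to 8.64) of replicate 4 only summits. All start-site windows held it in 4.74%.

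Both replicate lists have 30000 rows, with the highest signal 2792 in replicate 6 and 2807 in replicate 4. The files give no numbers of reads, so the depth of either library is unknown and no value can be weighed by it. The median of the strong signals, lower in replicate 6 (90.1) than in replicate 4 (127), was removed by the relative scale.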

How the data were processed

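ChIP-seq peak lists of 2 biological replicates (numbers 4 and 6) of 1 group were used, with the pooled and the IDR list. Each replicate's list was called from that replicate's own alignment with a common control on dm6, per the deposited file listing. Aligner and caller were not given in the sources used here. Per peak, the signal value is the authors' deposited score, on a scale the sources do not state, and was used to rank peaks and, divided by the median over the strong rows (as many as the IDR list has), to set the lists side by side. The deposited −log10 q-value has a ceiling and ranked nothing. Chromosome ends in the lists did not exceed the RefSeq sequence lengths.

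Summits (start plus offset) were matched with Python 3.11.15 and pandas 2.3.3. Ensembl release 115 gave genes, start sites and transposable elements, and the RefSeq assembly gave sequence and soft-masking. Pericentromeric parts were 2L beyond 22 Mb, 3L beyond 23 Mb, X beyond 22 Mb, the first 5.4 Mb of 2R and the first 4.2 Mb of 3R, which are rounded approximations. Shares have Wilson 95% intervals (SciPy 1.17.1) for counting error only; summits are not replicates, and no test was run. Matching, overlap, tandem-run and motif searches were tested on simulated data. The 17 gene lists and 19 motifs are described by counts. Named genes are those of the 15 strongest members at start sites and the 10 strongest away from them, the strongest members without a replicate 4 row, up to 3 per gene list and those of the 3 fullest windows; not every one is printed, and the strongest of each class and the genes with several members were added after their values were seen. The members and all lists were chosen with earlier results of these data known. Sequences on 2R were not printed.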

Additional observations from a re-analysis of the deposited data

How the results depend on the processing

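No paired analysis was possible because both replicates belong to 1 group, and leaving out a replicate was not possible because the rule takes both lists. The number of members, 667 as reported, became 243 with 0.5 times as many rows taken from each list, 1836 with 2 times as many and 350 where the replicate 4 rows compared were 3 times as many. In that order the share with a replicate 4 row became 74.1%, 46.6% and 32.9%, the share in the IDR list 86.4%, 6.81% and 27.4%, and the share at start sites 49.8%, 28.7% and 45.1%. The pericentromeric share became 45.04% with 2 times as many rows and 39.4% with 3 times as many replicate 4 rows. With summits matched within 50 bp, 29.2% had a replicate 4 row within 50 bp, 59.1% were in the IDR list and 47.1% at start sites. Within 250 bp 86.1% had a row. With overlapping intervals counted as shared 87.9% had an overlapping row and 26.8% were pericentromeric. Start sites within 250 bp of the summit gave 29.1%, within 1000 bp 48.7% and of protein-coding genes alone 36.9%. Borders 0.5 Mb nearer the centromere gave a pericentromeric share of 21.7%, and the compared sets were not recomputed with them. Over 50% of the window soft-masked gave 12.4%. Tandem runs of 20 bases or longer gave 1.35% and of 12 or longer 24.3%. The other 30 of 57 recomputed values stayed within the reported value's Wilson interval, or for the number of members within 1.5 times. The share with a soft-masked summit moved in none of the 7 settings of the rule, from 25.9% to 28.9%. Signal has no read depth behind it here, and at a single site 2 replicates estimate the spread only poorly, on values the rule selected.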
